A study of Homo sapiens with 6 samples.

Results

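TCF3, TCF4 and TCF12 (E proteins), ID1, ID2 and ID3 (their inhibitors) and CCND1, CCND2 and CCND3 (D cyclins) were taken by name, 9 of 58735 genes in the table. In Raji cells TCF3, ID3 and CCND3 held most of the transcript of their families. ID3 stood at 54.0 ± 6.54 FPKM in bryostatin libraries and 38.0 ± 7.71 FPKM in DMSO libraries (SD, n = 3 each), and was the one tested member past an unadjusted p of 0.05. It did not pass an adjusted p of 0.05, and neither did any other gene in the table. FPKM is a fragment count scaled by gene length and library size, and every error given with ± is the SD of 3 libraries. All 9 genes were found, and 6 of the 9 passed the filter on low values (mean FPKM of 1 or more), which left 11071 genes tested. ID1, CCND1 and CCND2 lay below it and are described by their values.

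The samples were Raji cells, an established human Burkitt lymphoma B-cell line, labelled with the genotype GFP-ffluc in both groups, a name for a green fluorescent protein and firefly luciferase reporter. The 3 bryostatin libraries came from cells exposed to bryostatin-1 at 1 nM overnight (37 °C), a macrolide from a marine bryozoan that binds the diacylglycerol site of protein kinase C, and the 3 DMSO libraries from cells kept with the solvent. All libraries were made from polyadenylated RNA of 1 cell line, and the labels do not say whether the replicates were separate cultures, so p-values measure the spread between these libraries, which may be technical. Reads on genes numbered 19405370 to 21406275 in bryostatin libraries and 19883563 to 24468270 in DMSO libraries. All 8 B-cell markers averaged 1 FPKM or more, with summed levels of 1016 to 1391 FPKM in bryostatin libraries and 949.9 to 1488 FPKM in DMSO libraries. None of the 9 T- and NK-cell, 8 myeloid and 8 stromal, epithelial and erythroid markers reached that level. Their summed levels were 0.0975 to 0.330, 0.136 to 0.721 and 0.311 to 0.534 FPKM in bryostatin libraries, against 0.140 to 0.427, 0.826 to 1.21 and 0.444 to 0.727 FPKM in DMSO libraries. CD2, KLRD1, NCAM1, MPO, S100A8, COL1A2, PDGFRB, EPCAM, HBB and HBA1 were at 0 in every library. The myeloid sums were lower in all 3 bryostatin libraries, and their part in the results was not tested. DMSO replicate 3 stood apart from the other DMSO libraries in cell-cycle genes, so values without it are given for the tested members and for the counts of list genes.

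E proteins are basic helix-loop-helix transcription factors that bind DNA as dimers at the E-box, CANNTG, and set B-cell identity. ID proteins carry the helix-loop-helix without the basic region, so they pair with E proteins and keep them off DNA. In Burkitt lymphoma, mutations that activate TCF3 or inactivate ID3 are known to free E protein activity, and CCND3, a D cyclin that turns on CDK4 and CDK6 at the G1 phase, is one of the genes TCF3 is known to drive. ID3 itself is a known E protein target, which closes a feedback loop.

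Promoter sequence is shown for ID2, ID3 and CCND3, to let the E-boxes be seen. RefSeq windows (GRCh38.p14) were held for 7 of the 9 members, in 22 windows, since a gene can have several start sites, and CCND1 and CCND2 had no window. The 250 bases before each start were searched for CANNTG, and for CAGCTG and CAGGTG on both strands, both of which are forms of it. Any E-box stood in 9 of the 22 windows, and one of these forms in 2 of them. These 2 windows, of ID2 and CCND3, are printed below because they hold such a form, beside the single window of ID3. Among 35116 windows of the same length in the table, 61.8% held CANNTG, 14.0% held CAGCTG, 17.5% held CAGGTG on either strand and 6.34% held CACGTG. The share of windows with either CAGCTG or CAGGTG was not counted. A match is a description of the letters and no evidence of binding. The ID2 window is chr2:8681806-8682055 on the plus strand, the ID3 window chr1:23559502-23559751 on the minus strand and the CCND3 window, the one farthest upstream of its 3, chr6:42048689-42048938 on the minus strand. Capitals mark the E-boxes, and each sequence runs 5′ to 3′ on the gene's strand.
ID2: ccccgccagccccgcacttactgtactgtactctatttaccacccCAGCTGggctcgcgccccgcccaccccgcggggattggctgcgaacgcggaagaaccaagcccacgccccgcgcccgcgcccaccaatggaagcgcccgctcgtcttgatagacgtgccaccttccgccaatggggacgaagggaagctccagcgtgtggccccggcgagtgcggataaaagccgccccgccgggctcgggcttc
ID3: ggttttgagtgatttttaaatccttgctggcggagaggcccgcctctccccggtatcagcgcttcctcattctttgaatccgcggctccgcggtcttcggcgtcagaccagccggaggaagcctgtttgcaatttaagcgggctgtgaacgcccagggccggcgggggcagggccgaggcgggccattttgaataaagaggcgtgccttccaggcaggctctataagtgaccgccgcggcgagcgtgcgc
CCND3: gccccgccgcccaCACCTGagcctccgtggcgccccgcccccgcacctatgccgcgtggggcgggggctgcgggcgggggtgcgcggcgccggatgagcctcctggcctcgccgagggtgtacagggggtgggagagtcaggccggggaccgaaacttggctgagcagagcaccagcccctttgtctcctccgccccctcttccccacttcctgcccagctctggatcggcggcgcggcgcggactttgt
In ID2 the E-box CAGCTG begins at position -205 before the start site, and in CCND3 the E-box CACCTG, which is CAGGTG read on the other strand, begins at position -237. The ID3 window held no CANNTG, and nor did the single windows of TCF3 and ID1. TCF4 held CANNTG in 5 of 10 windows, TCF12 in 2 of 5 and CCND3 in 1 of 3.

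The levels span a wide range, on the per-length FPKM scale. TCF3 ranked 240 of 58735 genes by mean level, CCND3 ranked 316 and ID3 ranked 895, while TCF12 ranked 5814, TCF4 6463 and ID2 7674. In both groups the order of mean levels was TCF3, CCND3, ID3, TCF12, TCF4, ID2, CCND1, ID1 and CCND2. Neighbours whose ranges overlapped were TCF3 with CCND3, TCF4 with ID2 and CCND1 with ID1 in bryostatin libraries, and TCF4 with ID2 in DMSO libraries. The deposited length of TCF4 is 27828 bases, against 8343 bases for its longest coding transcript in GENCODE release 29. Per longest coding transcript, TCF4 averaged 17.2 ± 1.02 in bryostatin libraries and 17.9 ± 1.21 in DMSO libraries (SD, n = 3 each). TCF12 then averaged 9.23 ± 0.691 in bryostatin libraries and 10.7 ± 1.07 in DMSO libraries, below TCF4, so the order of these E proteins rests on the length used. The order of TCF3 and CCND3 rests on it too. Per longest coding transcript the mean of CCND3 lay above that of TCF3 in both groups.

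**Figure D1:**
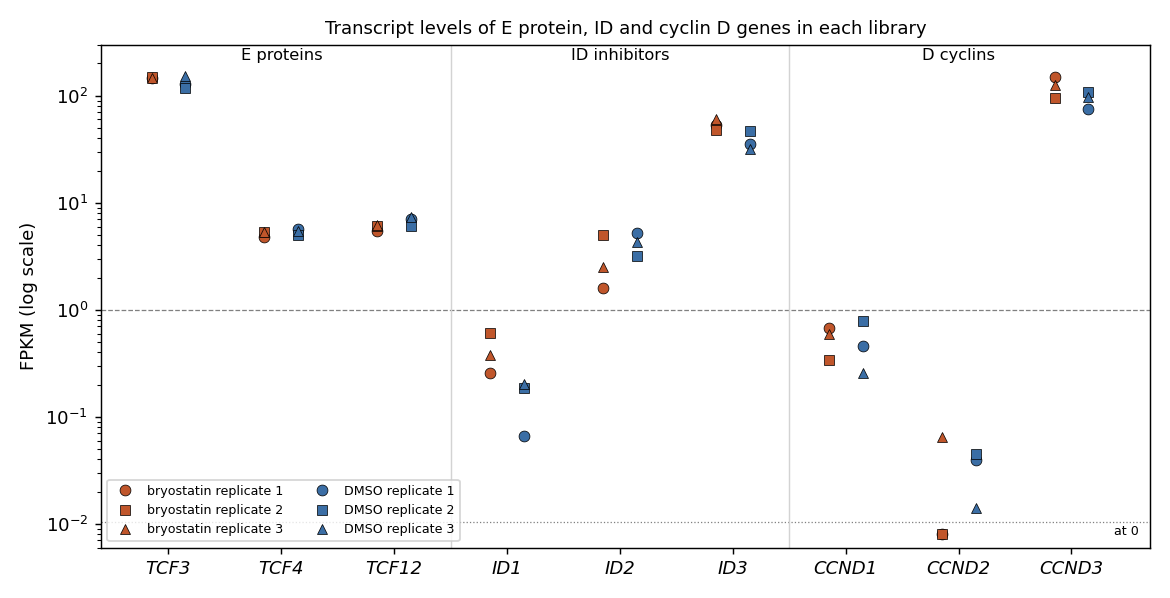
Level of each of the 9 transcripts in each library, in FPKM on a log scale, with bryostatin libraries left of DMSO libraries, a dashed line at the filter of 1 FPKM and the libraries at 0 drawn below the dotted line. TCF3, CCND3 and ID3 lie far above the other members in both groups, and ID3 and ID1 are the members whose groups do not overlap.

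**Figure D2:**
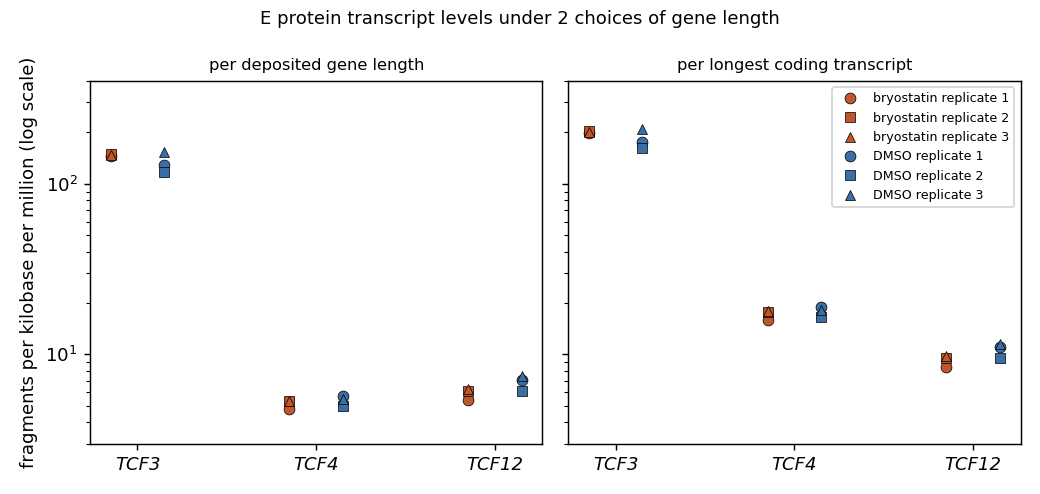
Levels of TCF3, TCF4 and TCF12 in each library, as length-scaled fragment counts (FPKM) on a log scale, per deposited gene length (left panel) and per longest coding transcript (right panel), bryostatin libraries left of DMSO libraries. TCF4 lies below TCF12 in the left panel by its means and above it in the right panel, with TCF3 highest in both.

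TCF3 encodes E12 and E47, the main E proteins of B cells. The gene lies at chr19:1609290-1652605, minus strand (ENSG00000071564, hg38), and had 146, 149 and 147 FPKM in bryostatin libraries, against 128, 118 and 153 FPKM in DMSO libraries. The bryostatin libraries were close to each other, and the DMSO libraries ran on both sides of them. The means were 147 ± 1.78 FPKM in bryostatin libraries and 133 ± 17.7 FPKM in DMSO libraries (SD, n = 3 each), a coefficient of variation of 1.21% in bryostatin libraries and 13.3% in DMSO libraries. The log2 change was 0.16 (SE 0.11, 95% interval -0.11 to 0.42), with an adjusted p of 0.474 in limma. Without DMSO replicate 3 it was 0.26, at an adjusted p of 0.115 in limma, and without DMSO replicate 2 it was 0.075. With quantile scaling it was 0.0052, at an adjusted p of 0.987 in limma.

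TCF12 encodes HEB and TCF4 encodes E2-2, the other E proteins. TCF12, at chr15:56918623-57299281, plus strand (ENSG00000140262), had 5.42, 6.10 and 6.25 FPKM in bryostatin libraries, against 7.07, 6.11 and 7.43 FPKM in DMSO libraries. TCF12 was lowest in a bryostatin library and highest in a DMSO library, with the groups overlapping by a narrow margin. The log2 change was -0.18 (SE 0.10, 95% interval -0.41 to 0.044), with an adjusted p of 0.352 in limma. TCF4, at chr18:55222331-55664787, minus strand (ENSG00000196628), had 4.80, 5.30 and 5.36 FPKM in bryostatin libraries, against 5.68, 4.97 and 5.46 FPKM in DMSO libraries. Its groups overlapped, and its log2 change was -0.049 (SE 0.084, 95% interval -0.25 to 0.15), with an adjusted p of 0.779 in limma. With the trend on gene length taken out of each library, the change of TCF4 was 0.13, of opposite sign, at an adjusted p of 0.445 in limma.

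Within the E protein family, TCF3 made up 93.5%, 92.9% and 92.7% of the summed FPKM in bryostatin libraries, against 91.0%, 91.4% and 92.2% in DMSO libraries. These groups did not overlap, with means of 93.0% ± 0.402 in bryostatin libraries and 91.5% ± 0.627 in DMSO libraries (SD, n = 3 each), and this share was not tested. Per longest coding transcript the shares were 88.4% ± 0.605 in bryostatin libraries and 86.3% ± 1.06 in DMSO libraries. That length rescales a gene by the same factor in every library. With the length trend removed, the log2 change was 0.15 for TCF3, 0.13 for TCF4 and -0.14 for TCF12. In the main fit these were 0.16, -0.049 and -0.18, and no share was computed with the trend removed.

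ID3 had 53.1, 48.0 and 61.0 FPKM in bryostatin libraries, against 35.5, 46.6 and 31.8 FPKM in DMSO libraries. The 3 bryostatin libraries all lay above the 3 DMSO libraries, with bryostatin replicate 2 and DMSO replicate 2 close together. The gene lies at chr1:23557918-23559794, minus strand (ENSG00000117318), and rested on 1725 to 2364 reads in bryostatin libraries and 1145 to 1835 reads in DMSO libraries. The log2 change was 0.51 (SE 0.16, 95% interval 0.14 to 0.88), a fold of 1.42 on the log2(FPKM + 1) scale used for every log2 change here, with an unadjusted p of 0.0144 and an adjusted p of 0.227 in limma. Of 20 alternatives, 18 kept the unadjusted p under 0.05, and the adjusted p ran from 0.169 to 0.586 in limma. Without DMSO replicate 3 the log2 change was 0.39, at an adjusted p of 0.175 in limma. ID3 was lowest in that library, where the mean of 20 cell-cycle genes was within the range of the bryostatin libraries.

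These counts stand against the whole table. In limma, 0 of 11071 genes passed an adjusted p of 0.05, which is 0% of the genes tested, and the smallest adjusted p was 0.121. At an unadjusted p under 0.05, 1159 genes were higher, 10.5% of those tested, and 795 were lower, 7.18%. The split of higher against lower turned with the scaling, at 848 higher against 1099 lower with TPM, 893 against 1017 with quantile scaling and 988 against 1033 with the trend on GC content removed. Of the 6 tested members, 1 was higher at that level (ID3) and 0 were lower. Groups did not overlap for 1430 genes with higher bryostatin values, 12.9% of those tested, and for 1180 with lower values, 10.7%. Among the tested members ID3 alone had groups that did not overlap, a count near this background.

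ID2 had a lower mean in bryostatin libraries, with wide scatter. The gene, at chr2:8678845-8684453, plus strand (ENSG00000115738), had 1.60, 5.01 and 2.52 FPKM in bryostatin libraries, against 5.23, 3.15 and 4.26 FPKM in DMSO libraries. Bryostatin replicate 2 lay inside the DMSO range and bryostatin replicates 1 and 3 below it. The log2 change was -0.43 (SE 0.30, 95% interval -1.15 to 0.28), with an adjusted p of 0.465 in limma. Without bryostatin replicate 2 it was -0.76, at an adjusted p of 0.253 in limma, and without bryostatin replicate 1 it was -0.16.

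ID1, at chr20:31605283-31606515, plus strand (ENSG00000125968), was covered by 6, 15 and 10 reads in bryostatin libraries and by 2, 5 and 5 reads in DMSO libraries. The sums were 31 reads in bryostatin libraries (exact Poisson 95% interval 21.1 to 44.0) and 12 reads in DMSO libraries (6.20 to 21.0), which cover counting error only. Its levels were 0.257, 0.608 and 0.376 FPKM in bryostatin libraries, against 0.0658, 0.185 and 0.202 FPKM in DMSO libraries, where 3 reads correspond to between 0.0987 and 0.128 FPKM. The groups did not overlap, but ID1 lay below the filter and was not among the genes tested. ID4, the further gene of the family, reached at most 0.0225 FPKM.

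The summed FPKM of ID1, ID2 and ID3 was 55.0, 53.6 and 63.9 in bryostatin libraries, against 40.8, 49.9 and 36.3 in DMSO libraries, and the groups did not overlap. ID3 made up 96.6%, 89.5% and 95.5% of it in bryostatin libraries and 87.0%, 93.3% and 87.7% in DMSO libraries, so the sum follows ID3. The ratio of TCF3 to ID3 was 2.75, 3.11 and 2.41 in bryostatin libraries, against 3.62, 2.53 and 4.79 in DMSO libraries. DMSO replicate 2 lay within the bryostatin range and DMSO replicates 1 and 3 above it. The difference of the log2 ratio was -0.36, and leaving out 1 library moved it to -0.14 (DMSO replicate 3) or to -0.60 (DMSO replicate 2).

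**Figure D3:**
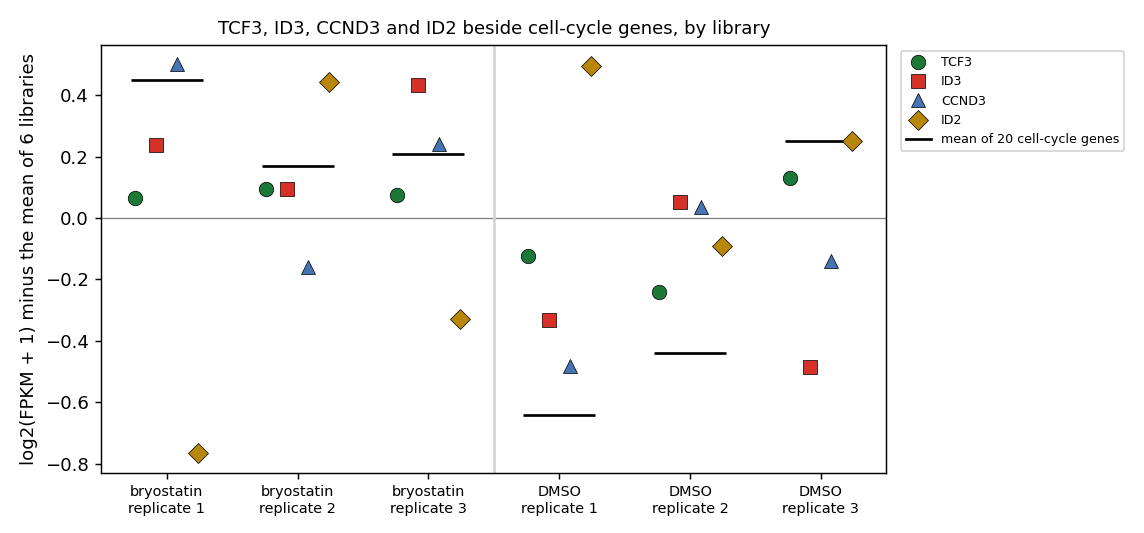
TCF3, ID3, CCND3 and ID2 in each library as log2(FPKM + 1) minus the gene's mean over the 6 libraries, with a line for the mean of 20 cell-cycle genes, bryostatin left of DMSO. ID3 is above its mean in all 3 bryostatin libraries, ID2 is lowest in bryostatin replicate 1, and DMSO replicate 3 has high cell-cycle genes beside the lowest ID3.

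CCND3 was nearly the whole of D cyclin transcript. At chr6:41934933-42050357, minus strand (ENSG00000112576), it had 151, 95.2 and 126 FPKM in bryostatin libraries, against 75.9, 109 and 96.5 FPKM in DMSO libraries. The highest library was bryostatin replicate 1 and the lowest DMSO replicate 1, and the groups overlapped through bryostatin replicate 2. The means were 124 ± 28.0 FPKM in bryostatin libraries and 93.6 ± 16.5 FPKM in DMSO libraries (SD, n = 3 each). The log2 change was 0.39 (SE 0.20, 95% interval -0.075 to 0.86), with an adjusted p of 0.336 in limma. Without bryostatin replicate 2 it was 0.57, at an adjusted p of 0.255 in limma, and without bryostatin replicate 1 it was 0.24. Without DMSO replicate 3 the log2 changes were -0.039 for TCF4, -0.13 for TCF12, -0.42 for ID2 and 0.42 for CCND3. CCND3 held 99.6%, 99.6% and 99.5% of D cyclin FPKM in bryostatin libraries, against 99.3%, 99.2% and 99.7% in DMSO libraries.

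CCND1 and CCND2, the other D cyclins, had low transcript levels. CCND1, at chr11:69641087-69654474, plus strand (ENSG00000110092), had 0.677, 0.341 and 0.595 FPKM in bryostatin libraries, against 0.462, 0.784 and 0.258 FPKM in DMSO libraries, from 157 reads in bryostatin libraries and 163 reads in DMSO libraries. Its groups overlapped. Of its 4830 bases, 497 are shared with exons of LTO1 on the other strand, which reached 2.56 FPKM. Without a stated strand setting, reads on these shared bases cannot be assigned to either gene. CCND2, at chr12:4273772-4305350, plus strand (ENSG00000118971), had 0, 0 and 10 reads in bryostatin libraries and 7, 7 and 2 reads in DMSO libraries. CCND2 shares 989 exon bases with AC008012.1 on the same strand and 126 with CCND2-AS1 on the other. Over the full deposited length, a count of 0 allows up to 0.0221 FPKM in bryostatin replicate 1 and 0.0210 FPKM in bryostatin replicate 2. The levels in DMSO replicates 1 and 2, 0.0397 and 0.0446 FPKM, lay above these limits, and the groups overlapped through bryostatin replicate 3.

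**Figure D4:**
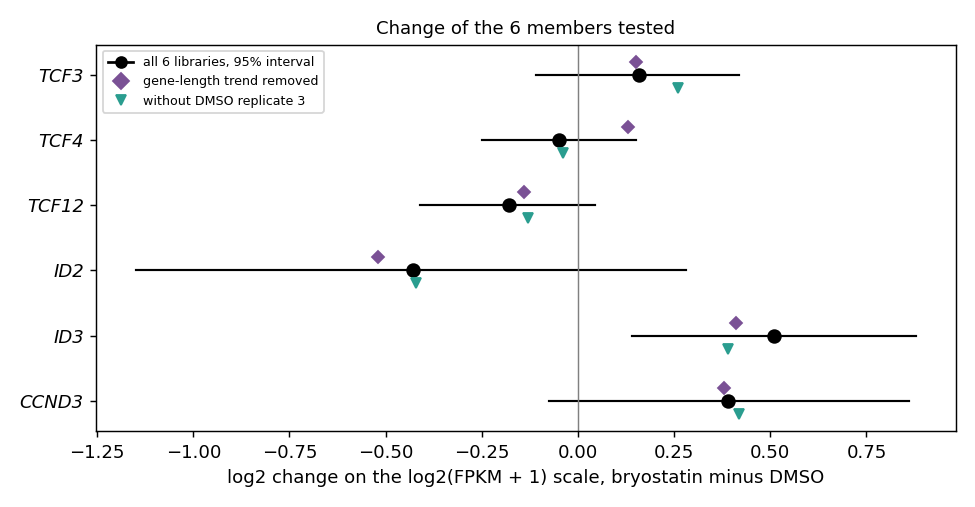
Log2 change, bryostatin minus DMSO, of the 6 tested members on the log2(FPKM + 1) scale, with the 95% interval of the fit, and beside it the value with the gene-length trend removed and the value without DMSO replicate 3. The interval of ID3 is the one that does not reach 0, and TCF4 changes sign with the length trend removed.

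Genes that share a profile with a member were taken as the 3 protein-coding genes with the smallest root mean square difference of centred log2(FPKM + 1) over the 6 libraries, among 6162 genes averaging 5 FPKM or more. For TCF3, whose own spread was 0.133, they were KDM1A, a histone demethylase, at 0.0188, ARMC10 at 0.0316 and CARM1, an arginine methyltransferase, at 0.0330. For ID3, with a spread of 0.316, they were BLOC1S1 at 0.0819, H1FX, a linker histone, at 0.103 and PAXX, a DNA end-joining factor, at 0.109. For CCND3, with a spread of 0.313, they were TERF2IP, a telomere protein, at 0.0641, GPAT2 at 0.0688 and SLC43A3 at 0.0754. Likeness over 6 libraries is a description and says nothing of function.

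Around the members, 112 list genes cover the partners, targets and downstream steps of the axis, and 94 of them were tested. In limma, 0 passed an adjusted p of 0.05. Over all 11071 genes, 5967 had a log2 change above 0 and 5104 below, with a median of 0.018. With DMSO replicate 3 left out, 1730 of the 11071 genes (15.6%) were higher and 1131 (10.2%) lower by the unadjusted p. In that fit an unadjusted p under 0.05 in limma was met by 0 higher and 1 lower of the E protein partners, 1 higher and 2 lower of their targets, 2 higher and 1 lower of the ID list, and 4 higher and 1 lower of the cyclin D list.

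E protein partners and cofactors, which join E proteins at their targets, had 9 of 17 genes tested, 4 above 0 and 5 below, with a median of -0.071. At an unadjusted p under 0.05, 1 was higher and 2 were lower. EP300, a histone acetyltransferase, had 9.12 ± 0.380 FPKM in bryostatin libraries and 10.7 ± 0.519 FPKM in DMSO libraries (SD, n = 3 each), without overlap, a log2 change of -0.21 and an adjusted p of 0.247 in limma. CREBBP, its paralogue, had 4.84 ± 0.224 FPKM in bryostatin libraries and 5.71 ± 0.450 FPKM in DMSO libraries, a log2 change of -0.20 and an adjusted p of 0.282 in limma. With the length trend removed the unadjusted p in limma was 0.153 for EP300 and 0.305 for CREBBP, with log2 changes of -0.12 and -0.089. LMO4, an adaptor that joins LIM-domain complexes, had 23.7 ± 6.94 FPKM in bryostatin libraries and 16.3 ± 2.48 FPKM in DMSO libraries, an adjusted p of 0.282 in limma. LMO2 spread from 31.2 to 92.9 FPKM in bryostatin libraries and from 31.3 to 81.8 FPKM in DMSO libraries, with a log2 change of 0.37 that ran from 0.071 without DMSO replicate 3 to 0.85 without bryostatin replicate 2. LDB1, which bridges LMO proteins, had 24.7 ± 1.35 FPKM in bryostatin libraries and 26.7 ± 0.943 FPKM in DMSO libraries. TAL1 and MSC, which can pair with E proteins, stayed below the filter.

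E protein target genes had 17 of 19 genes tested, 9 above 0 and 8 below, with a median of 0.0097, and 1 lower at an unadjusted p under 0.05. That gene was HES1, a Notch-responsive repressor, with 9.28, 11.6 and 12.7 FPKM in bryostatin libraries, against 18.2, 15.3 and 15.9 FPKM in DMSO libraries. No bryostatin library reached the DMSO range, the log2 change was -0.53 (SE 0.13) and the adjusted p in limma was 0.216. EBF1, a B-lineage factor, had 8.74 ± 0.898 FPKM in bryostatin libraries and 10.3 ± 0.705 FPKM in DMSO libraries. The B-cell receptor chains CD79A and CD79B had log2 changes of 0.14 and -0.10, and values of -0.017 and -0.29 without DMSO replicate 3. The adjusted p of CD79B was then 0.0878 in limma, and its log2 change was -0.0059 without DMSO replicate 2. RAG1 and RAG2 reached at most 0.0540 and 0.0151 FPKM.

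Genes that induce or turn over ID proteins had 17 of 23 genes tested, 7 above 0 and 10 below, with a median of -0.031. At an unadjusted p under 0.05, 1 was higher and 2 lower. COPS5, a subunit of the COP9 signalosome, had 11.6, 10.4 and 9.81 FPKM in bryostatin libraries, against 8.07, 8.69 and 8.54 FPKM in DMSO libraries, with a log2 change of 0.29 and an adjusted p of 0.217 in limma. Every bryostatin library was above every DMSO library. BMPR2, a BMP receptor, had 1.57 ± 0.517 FPKM in bryostatin libraries and 2.76 ± 0.643 FPKM in DMSO libraries without overlap, a log2 change of -0.55 and an adjusted p of 0.232 in limma. TGFBR1, a TGF-beta receptor, had 6.65 ± 0.663 FPKM in bryostatin libraries and 8.55 ± 1.25 FPKM in DMSO libraries (SD, n = 3 each), and TGFB1 had 61.6 ± 8.57 FPKM in bryostatin libraries and 67.1 ± 4.37 FPKM in DMSO libraries. USP1, the deubiquitinase that stabilises ID proteins, had 30.4 ± 1.85 FPKM in bryostatin libraries and 23.9 ± 5.48 FPKM in DMSO libraries. Its log2 change was 0.36, and 0.53 without DMSO replicate 3, at adjusted p-values of 0.289 and 0.0521 in limma.

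Cyclin D partners and inhibitors had 15 of 17 genes tested, 11 above 0 and 4 below, with a median of 0.084, and at an unadjusted p under 0.05 3 were higher and 2 were lower. CDK4 and CDK6, the kinases that D cyclins activate, lay on opposite sides of their DMSO levels. CDK4 had 42.6, 36.6 and 36.5 FPKM in bryostatin libraries, against 23.7, 28.2 and 31.6 FPKM in DMSO libraries, a log2 change of 0.46 (SE 0.13) and an adjusted p of 0.217 in limma. CDK6 had 10.7 ± 0.410 FPKM in bryostatin libraries and 13.5 ± 0.609 FPKM in DMSO libraries, a log2 change of -0.31 (SE 0.077) and an adjusted p of 0.216 in limma. Both genes had groups that did not overlap, and with the length trend removed the changes were 0.40 and -0.23. CDKN2D, an inhibitor of both kinases, had 7.75, 7.08 and 6.81 FPKM in bryostatin libraries, against 5.64, 4.95 and 5.11 FPKM in DMSO libraries, without overlap, a log2 change of 0.40 (SE 0.085) and an adjusted p of 0.216 in limma. CDC37, a chaperone that loads CDK4, had 82.3 ± 8.58 FPKM in bryostatin libraries and 67.6 ± 5.48 FPKM in DMSO libraries (SD, n = 3 each), and CDKN1A, an inhibitor of cyclin kinases, had 44.1 ± 2.91 FPKM in bryostatin libraries and 42.5 ± 7.06 FPKM in DMSO libraries. The log2 change of CDKN1A was 0.062, and -0.072 without DMSO replicate 3.

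**Figure D5:**
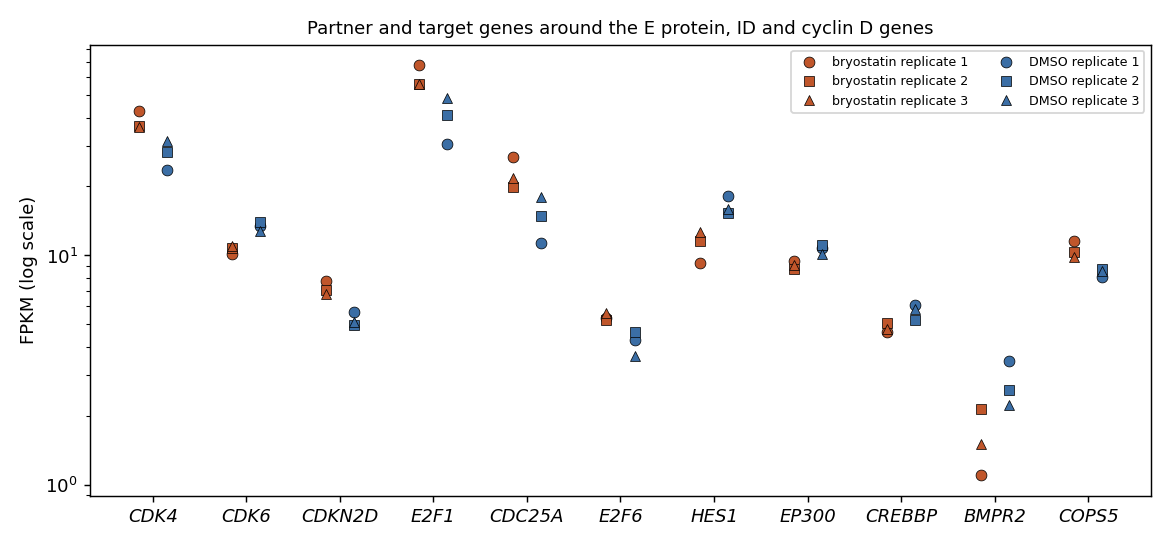
FPKM in each library of genes named beside the axis, on a log scale, bryostatin libraries left of DMSO libraries. Every gene drawn has groups that do not overlap, as have 12.9% of all genes tested with higher and 10.7% with lower bryostatin values. AURKB, BIRC5, CDK1 and MCM7 also have groups without overlap but are not drawn, nor are named genes whose groups overlap. CDK4, CDKN2D, COPS5, E2F1, CDC25A and E2F6 lie higher in all 3 bryostatin libraries, and CDK6, HES1, BMPR2, EP300 and CREBBP lower.

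RB and E2F genes, the step that D cyclin kinases act on, had 17 of 17 tested, 15 above 0 and 2 below, with a median of 0.27, and at an unadjusted p under 0.05 5 were higher and 0 were lower. E2F1 had 67.7, 56.2 and 56.2 FPKM in bryostatin libraries, against 30.8, 40.9 and 48.7 FPKM in DMSO libraries, without overlap, a log2 change of 0.59 (SE 0.17) and an adjusted p of 0.217 in limma. CDC25A, a phosphatase that activates cyclin kinases, had 22.9 ± 3.74 FPKM in bryostatin libraries and 14.7 ± 3.37 FPKM in DMSO libraries. E2F6, a repressor, had 5.38 ± 0.195 FPKM in bryostatin libraries and 4.19 ± 0.489 FPKM in DMSO libraries. TFDP1, the E2F dimer partner, had a log2 change of 0.24, which was 0.41 without DMSO replicate 3, at an adjusted p of 0.0562 in limma, and 0.13 without DMSO replicate 2. CCNA2, the cyclin of S phase, had 67.2, 64.5 and 62.9 FPKM in bryostatin libraries, against 34.8, 33.9 and 72.4 FPKM in DMSO libraries, where DMSO replicate 3 lay above every bryostatin library.

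The cell-cycle genes of S phase and mitosis had 20 of 20 tested and above 0, with a median of 0.57, and 10 higher at an unadjusted p under 0.05. AURKB, a mitotic kinase, had 48.3 ± 4.41 FPKM in bryostatin libraries and 28.2 ± 8.71 FPKM in DMSO libraries. BIRC5, the survival and mitosis factor survivin, had 41.3 ± 5.44 FPKM in bryostatin libraries and 24.3 ± 7.93 FPKM in DMSO libraries, and CDK1, the mitotic cyclin kinase, had 39.8 ± 3.58 FPKM in bryostatin libraries and 26.9 ± 6.65 FPKM in DMSO libraries. PCNA, the replication clamp, had 181 ± 23.3 FPKM in bryostatin libraries and 126 ± 54.2 FPKM in DMSO libraries, and MCM7, a helicase subunit, had 133 ± 26.9 FPKM in bryostatin libraries and 77.9 ± 25.1 FPKM in DMSO libraries. The mean of the list, centred over the libraries on the log2 scale, was 0.45, 0.17 and 0.21 in bryostatin libraries, against -0.64, -0.44 and 0.25 in DMSO libraries, so DMSO replicate 3 stood within the bryostatin range. Without DMSO replicate 3, 20 of the 20 cell-cycle genes and 9 of the 17 RB and E2F genes were higher at an unadjusted p under 0.05 in limma, beside 15.6% of all genes tested. With that library in the fit the counts were 10 and 5, beside 10.5% of all genes tested. Leaving out any one of the other 5 libraries gave 3 to 6 higher cell-cycle genes and 3 higher RB and E2F genes. With all 6 libraries the adjusted p-values of AURKB, BIRC5, CDK1 and CCNA2 in limma were 0.217, 0.217, 0.221 and 0.332. Without DMSO replicate 3 these genes had log2 changes of 1.02, 1.02, 0.75 and 0.90. Their adjusted p-values in limma were then 0.0386, 0.0366, 0.0443 and 0.0336. In that fit E2F1, CDC25A, E2F6, PCNA and MCM7 did not pass, at adjusted p-values of 0.0596, 0.0660, 0.151, 0.0512 and 0.0623 in limma. DMSO replicate 3 was singled out by its cell-cycle genes, so the counts and p-values without it depend on that choice and are no independent support. Without that library 267 genes of the whole table (2.41%) passed an adjusted p of 0.05 in limma, 196 higher and 71 lower, among them 15 list genes and no member. In bulk RNA, a different number of cells in a phase and a different amount of RNA per cell cannot be told apart, and the part of the cell-cycle genes in the values of TCF3, ID3 and CCND3 was not tested.

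The deposited values are divided by gene length, and the change of a gene varied with length over the table. The median log2 change was 0.089 in the fifth of genes with the shortest lengths and -0.064 in the fifth with the longest. ID3, with a length of 1797 bases, was the one tested member in the shortest, and TCF4 and TCF12 were the tested members in the longest. With the trend removed the log2 change of ID3 was 0.41, with an unadjusted p of 0.0282 in limma.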

How the data were processed

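The authors deposited FPKM per gene for 6 libraries, beside each gene's length in bases. Tools named in the submitters' processing notes were CASAVA, HISAT2 (2.0.5), featureCounts (1.5.0-p3) and DESeq2 (1.20.0), with hg38. The strand setting is not given in the sources used here. All 58735 gene IDs and coordinates match GENCODE release 29. FPKM multiplied by length and divided by a constant fitted to each library gave whole reads (tolerance 0.001), hence depth and reads.

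Libraries were grouped by the treatment label. Genes averaging 1 FPKM or more (11071) were fitted on log2(FPKM + 1) in limma (3.58.1, R 4.3.3), with an intensity trend and Benjamini-Hochberg adjustment over all of them at a threshold of 0.05. FPKM values are not counts, so the main test used no count model, and voom weights on the recovered reads served as an alternative. With 3 libraries a side, exact permutation reaches no two-sided p below 0.1. The fit was first tested on simulated data.

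The members and lists were chosen with earlier results of these data known. From each of 6 lists the 3 tested genes with the smallest p and the 2 most abundant are named, except 1 that is not reported here. Alternatives covered the pseudocount, filter, scaling, moderation, voom, replicate block and each library left out. Trends on gene length and GC content, and levels per longest coding transcript, were added after seeing the data. Promoter windows came from RefSeq (GRCh38.p14, the assembly of hg38), 250 bases before each start.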

Additional observations from a re-analysis of the deposited data

How the results depend on the processing

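The number of genes past an adjusted p of 0.05 was 0 in the fit described. It was 1 with a pseudocount of 0.1 and 1 with TPM, and it ran from 0 to 267 when each library was left out, with 267 without DMSO replicate 3 and 1 without DMSO replicate 2. List genes called higher ran from 0 to 15 in the same way, and none of the 6 tested members was called in any alternative it entered, which is 20 for each but ID2, with 19. The estimate of TCF4 was 0.13 with the length trend removed, in place of -0.049, and the cause was not tested. The estimate of ID1 was 1.02 and 0.48 with pseudocounts of 0.1 and 0.5 and 0.64 with TPM, in place of 0.29, and that of CCND2 was -0.16 with a pseudocount of 0.1, which weighs low values more. CDKN1A, at 0.062, was at -0.048 with quantile scaling and -0.0068 with the length trend removed, and ran from -0.072 to 0.16 when each library was left out, as CD79A ran from -0.017 to 0.30. Over the same left-out libraries the estimate of TCF3, which was 0.0052 with quantile scaling, ran from 0.075 to 0.26, TCF12 from -0.25 to -0.13, ID2 from -0.76 to -0.16, ID3 from 0.39 to 0.66 and CCND3 from 0.24 to 0.57. ID3 missed an unadjusted p of 0.05 in limma with quantile scaling and without bryostatin replicate 3.

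At an unadjusted p under 0.05, 1159 genes stood above DMSO and 795 below it in the fit described, and 943 and 440 with a filter of 5 FPKM, which leaves out ID2. With each library left out these counts ran from 560 to 1730 and from 328 to 1131. With the replicate number as a block they numbered 784 and 407, 0 genes passed the adjusted threshold and the adjusted p of ID3 in limma was 0.458. Same-numbered libraries had correlations of their deviations of -0.29, -0.32 and -0.11, so the numbers give no sign of pairing. Depth limits ID1 and CCND2, which rest on few reads.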
